A study of Homo sapiens with 3 samples.

Results

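Human chromosomes in the hg19 assembly come with short pieces of sequence, called contigs, that are human but could not be put in place. An unlocalized contig is assigned to a chromosome without a position on it, and an unplaced contig to no chromosome at all. Such pieces are known to be rich in segmental duplications and tandem repeats, and the unplaced contig chrUn_gl000220 is known to carry the ribosomal RNA gene repeat, of which a genome holds many more copies than its assembly. The peaks of p53 described here are those on any sequence other than chromosomes 1 to 22, X and Y. They were chosen by contig name alone and number 223 of the 35740 peaks listed in all. Of these, 72 of 17986 were in the control library, 130 of 17321 in the ERG shRNA library and 21 of 433 in the ERG shRNA 2 library.

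The peaks come from chromatin immunoprecipitation and sequencing (ChIP-seq) of p53 in VCaP cells, a long-established line from a human prostate cancer. p53 is a DNA-binding tumour suppressor, and VCaP carries it with the mutation R248W, which lies in the DNA-binding domain. ERG is a transcription factor of the ETS family, and VCaP is known to overexpress it from a fusion with TMPRSS2. The series asked whether the binding of mutant p53 changed when ERG was knocked down. Every library was VCaP with the same p53 mutation: the control expressed an shRNA against luciferase, and the other libraries each expressed an shRNA against ERG, of which the second is numbered 2. The antibody of control and ERG shRNA is DO-1, which recognises mutant as well as wild-type p53, and the label of ERG shRNA 2 names none. The header of that library also carries another date-like tag, so hairpin, that tag, depth and any difference of antibody cannot be told apart for it. Each library pooled several immunoprecipitations and is 1 sample, so differences between libraries could not be checked against replicates and carry no p-value. The exact 95% intervals below (Clopper-Pearson) cover counting error only and compare libraries, not conditions. Transcript levels, and so the degree of ERG knockdown, were not analysed here. The libraries held 9258451, 4853617 and 52175068 tags in the order control, ERG shRNA, ERG shRNA 2, each against an input of 14360465 tags. Pileups of ERG shRNA 2 were scaled down to the input total, and those of the other libraries are in their own tags, so heights are not compared between lists.

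All 223 peaks lay on unplaced or unlocalized contigs. None lay on an alternative haplotype or on mitochondrial DNA. In the control 55 were on 20 unplaced and 17 on 7 unlocalized contigs, and in ERG shRNA 96 were on 21 and 34 on 10. In ERG shRNA 2, 20 of the 21 were on 11 unplaced contigs, and the other lay on chr9_gl000198_random. Contigs therefore held 0.400% of the control list (95% interval 0.313 to 0.504), 0.751% of the ERG shRNA list (0.627 to 0.891) and 4.85% of the ERG shRNA 2 list (3.03 to 7.32). ERG shRNA had 1.81 times the contig peaks of the control while its whole list was 0.963 times as long, and the intervals of these shares did not overlap. Among peaks with a q of at most 0.05 the shares were 0.411% (0.313 to 0.530) in the control and 0.684% (0.547 to 0.843) in ERG shRNA, again without overlap. Stricter cuts leave few contig peaks, 10 and 16 at a fold of at least 5, and no such separation is claimed there. The intervals treat peaks as independent, although 11 of 45 control and 17 of 99 ERG shRNA gaps between neighbours were under 1 kb.

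The excess in ERG shRNA was spread over many contigs. Of 39 contigs with a peak in any list, 23 held more ERG shRNA than control peaks, 9 held fewer and 5 held as many, and the other 2 had peaks in ERG shRNA 2 alone. Peaks in both the control and ERG shRNA were found on 21 contigs, and 9 contigs had a peak in all 3 lists. The 10 contigs with ERG shRNA peaks and no control peak held 23 ERG shRNA peaks, at most 4 each. The 6 with control but no ERG shRNA peaks held 8, at most 2 each. The 4 fullest contigs held 41.7% of the control's contig peaks, 39.2% of those of ERG shRNA and 61.9% of those of ERG shRNA 2.

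**Figure D1:**
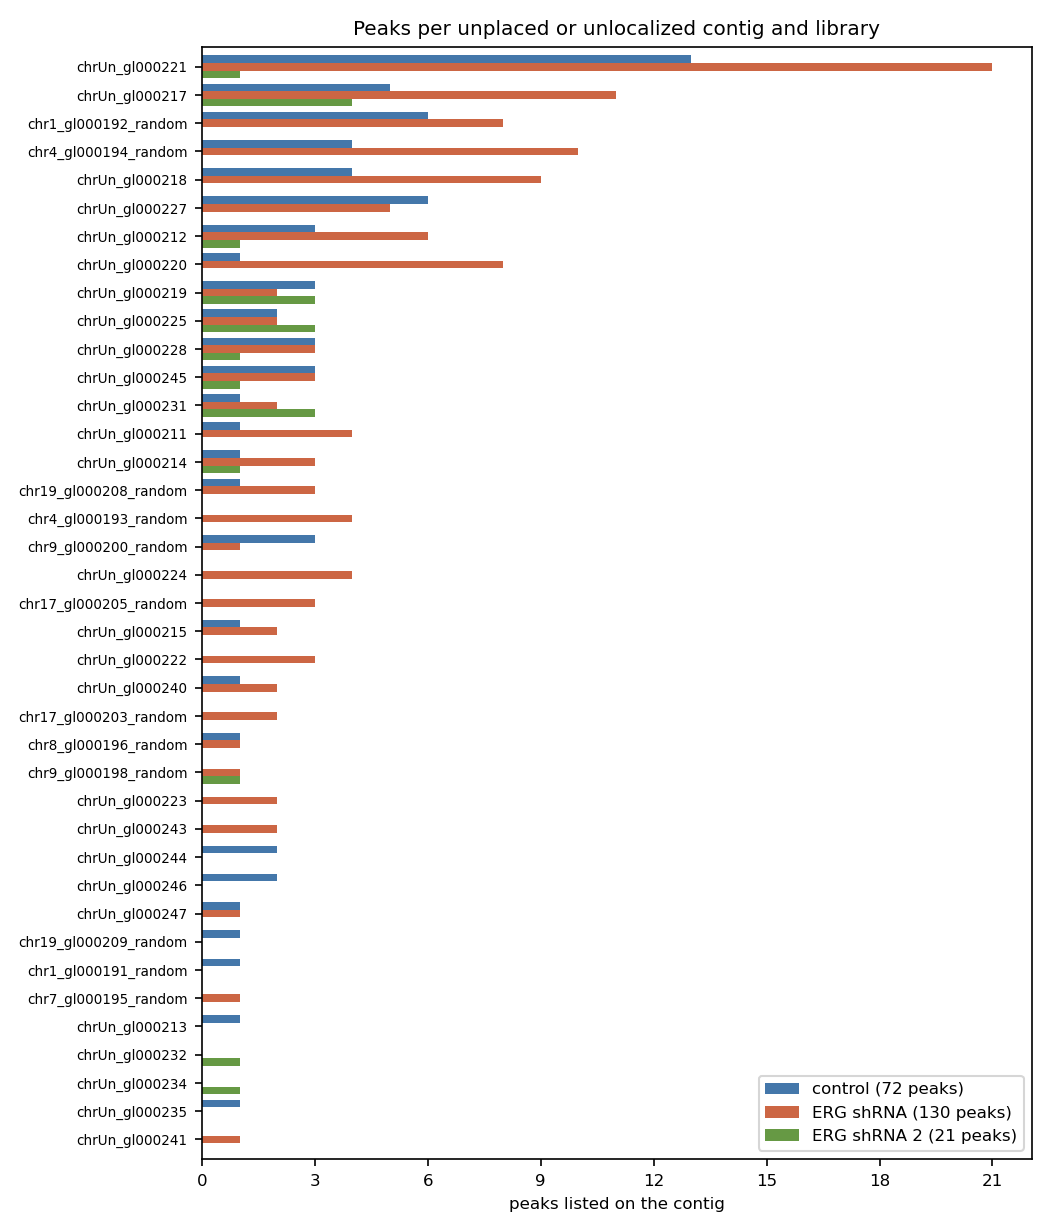
Number of listed peaks (horizontal axis) on each of the 39 contigs with at least 1 peak, in control (blue), ERG shRNA (orange) and ERG shRNA 2 (green). The fullest contig is chrUn_gl000221, with 13, 21 and 1 peaks, and chrUn_gl000220 has 1, 8 and 0.

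The contig with the most peaks was chrUn_gl000221, with 13 control, 21 ERG shRNA and 1 ERG shRNA 2 peaks. On it the control peaks had pileups of 6 to 10 extended tags and folds of 3.06 to 5.98. The pileup is the height of overlapping tags at the summit, and the fold is the authors' deposited quotient of pileup and local background after adding 1 to each. The ERG shRNA peaks there had pileups of 3 to 8 and folds of 2.98 to 6.55. These are low towers of few tags in both libraries, set along most of the contig, and 6 control peaks were overlapped by 6 ERG shRNA peaks. Its single ERG shRNA 2 peak, at 20057 to 20267, had the highest fold among that library's contig peaks, 4.91, and overlapped no peak of the other lists.

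Next came chrUn_gl000217, with 5 control, 11 ERG shRNA and 4 ERG shRNA 2 peaks. The control pileups there were 6 to 7, those of ERG shRNA 3 to 10 and those of ERG shRNA 2 6.88 to 9.36, with highest folds of 5.28, 5.46 and 4.18. All 3 libraries listed it, and 1 site was shared: the control peak at 140511 to 140658 and the ERG shRNA peak at 140529 to 140739, with summits 2 bp apart. Over the whole lists 13.5% of control and 14% of ERG shRNA peaks were overlapped by the other list. None of the 4 ERG shRNA 2 peaks overlapped a peak of another list.

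Among the unlocalized contigs, chr1_gl000192_random held 6 control and 8 ERG shRNA peaks and chr4_gl000194_random 4 and 10. No peak on either was shared, against 13.5% of all control and 14% of all ERG shRNA peaks, and neither had an ERG shRNA 2 peak. The highest fold of all control contig peaks was on chr4_gl000194_random at 154821 to 155014, with 6.27 and a pileup of 10. In the control the peaks of chr1_gl000192_random all lay between 419676 and 507264. In ERG shRNA they ran from 46375 to 535529.

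The unplaced contigs chrUn_gl000218 and chrUn_gl000227 held 4 control and 9 ERG shRNA peaks, and 6 and 5, respectively. The former shared no site between these lists and the latter 1, where the control peak at 40889 to 41074 met an ERG shRNA peak at 40509 to 40946. The whole-list shares were 13.5% of control and 14% of ERG shRNA peaks. All 6 control peaks on chrUn_gl000227, and all 6 on chr1_gl000192_random, had a local background of at most 1.27 times the genome-wide value, the floor that MACS uses.

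Unlocalized contigs can be set beside the chromosome in their name. Those of chromosome 4 held 4 control and 14 ERG shRNA peaks, while chromosome 4 itself held 1481 and 1411. The contigs made up 0.269% (0.0734 to 0.688) and 0.982% (0.538 to 1.64) of these sums, with overlapping intervals. For chromosome 17 the contigs held 0 control and 5 ERG shRNA peaks, beside 293 and 279 on the chromosome. For chromosome 1 they held 7 and 8, beside 1369 and 1390, so the counts were similar in both places.

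The tallest signals on contigs stood on very high background. At chrUn_gl000212, 40516 to 41008, the control peak had a pileup of 176, the highest of all 17986 control peaks, but a background of 79.3 tags, also the highest of that list, and so a fold of 2.20. Further control peaks on this contig, at 42240 to 42452 and 43878 to 44084, had pileups of 52 and 50 over backgrounds of 25.1 and 15.5. ERG shRNA listed the same 3 places as 4 peaks, because the first was split into 40546 to 40701 and 40795 to 40982. Their pileups were 97, 124, 38 and 39 and their backgrounds 32.8, 36.5, 12.2 and 7.10, of which the second was the highest of the ERG shRNA list.

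Although their folds were low, these peaks ranked high by q. The −log10 q was 15.0 for the tallest control peak, which ranked 81 in its list, and 23.9 for the tallest ERG shRNA peak, which ranked 36. With 1 tag kept per position and strand, the largest possible pileup was 296 in the control and 230 in ERG shRNA. Pileups near that limit cannot rise in proportion to the DNA recovered. ERG shRNA 2 listed 1 peak on this contig, far from the tall ones at 7383 to 7598, with a pileup of 6.88. Its largest possible pileup was 308 before scaling down to the input total, and lower after it. With the background of the tallest control peak scaled to ERG shRNA 2, a listed peak there would need a pileup of 164. Where the control had its other tall peaks it would need 62 and 42, which the scaled limit did not bar. With 1 library per group, the absence of tall peaks from that list was not read as a difference between libraries.

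On the ribosomal RNA contig chrUn_gl000220 ERG shRNA listed 8 peaks, the control 1 and ERG shRNA 2 none. With the background of the control peak scaled to ERG shRNA 2, a listed peak there would need a pileup of 59. The limit on ERG shRNA 2 pileups given above did not bar that, and why none was listed was not tested. The control peak, at 103697 to 103960, had a pileup of 60, a background of 24.0 and a fold of 2.44. The ERG shRNA peak at 103628 to 104013 overlapped it, with a pileup of 33 over 13.5 and a fold of 2.34.

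The other 7 ERG shRNA peaks on chrUn_gl000220 fell into places the control did not list. So did most ERG shRNA peaks, of which 14% over the whole list were overlapped by a control peak. Upstream of the shared one were 101587 to 101705 (fold 3.47) and 102501 to 103119 (fold 3.90), the latter being the widest contig peak of this library at 619 bp. Those at 126500 to 126796, 128634 to 128848, 132268 to 132382 and 132907 to 133168 had folds of 2.58, 2.74, 2.12 and 2.86. The last, at 146743 to 146925, had a fold of 2.09. Pileups of all 8 were 33 to 51 and backgrounds 8.79 to 19.2 tags, or 42.5 to 92.7 times the genome-wide value. All 8 had a q of at most 0.05.

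These 7 peaks had pileups of 2.15 to 4.22 times their background. The list of a library gives no background where it has no peak, so the levels of control and ERG shRNA 2 at these 7 places were not analysed here. The positions of the ribosomal RNA genes within the contig were not used here, and no peak was assigned to a gene.

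Another contig of high background was chrUn_gl000224, with 4 ERG shRNA peaks and none in the other lists. Those at 2247 to 2460, 9070 to 9246 and 15379 to 15572 had pileups of 25, 21 and 14 over 7.77, 7.44 and 5.75 tags, and folds of 2.96, 2.61 and 2.22. The fourth, at 25554 to 25668, had a background of 0.688 tags, or 3.33 times the genome-wide value, and a pileup of 7.

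**Figure D2:**
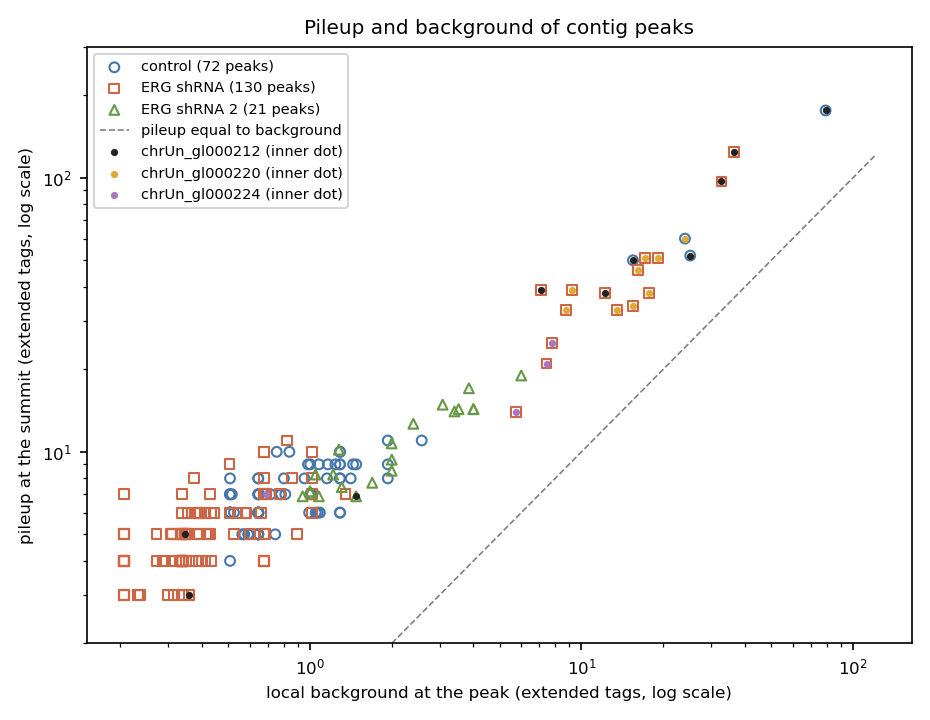
Pileup at the summit against local background for all 223 contig peaks, both in extended tags on log axes. Circles are control, squares ERG shRNA and triangles ERG shRNA 2, and inner dots mark 3 contigs. The peaks of chrUn_gl000212 reach pileups of 176 and 124, and most of the marked peaks stand apart from the main cloud, with pileups of 14 or more.

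Peaks with a background at least 20 times the genome-wide value, a level chosen after seeing the data, were set apart. In control and ERG shRNA, contigs held a larger share of them than of all peaks, 0.400% and 0.751%. In ERG shRNA 15 of 24 peaks at this level (62.5%, 40.6 to 81.2) were on contigs, 4 on chrUn_gl000212, 8 on chrUn_gl000220 and 3 on chrUn_gl000224. In the control 4 of 13 (30.8%, 9.09 to 61.4) were, 3 on chrUn_gl000212 and 1 on chrUn_gl000220. ERG shRNA 2 listed none on any sequence, its highest background being 17.1 times the genome-wide value, and the cause was not tested. All 4 of the control's were overlapped by ERG shRNA peaks, and 7 of its 9 on the main chromosomes were, against 13.5% of all control peaks. Of the 15 in ERG shRNA 5 met a control peak, and 7 of its 9 on the main chromosomes did, against 14% of all ERG shRNA peaks.

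**Figure D3:**
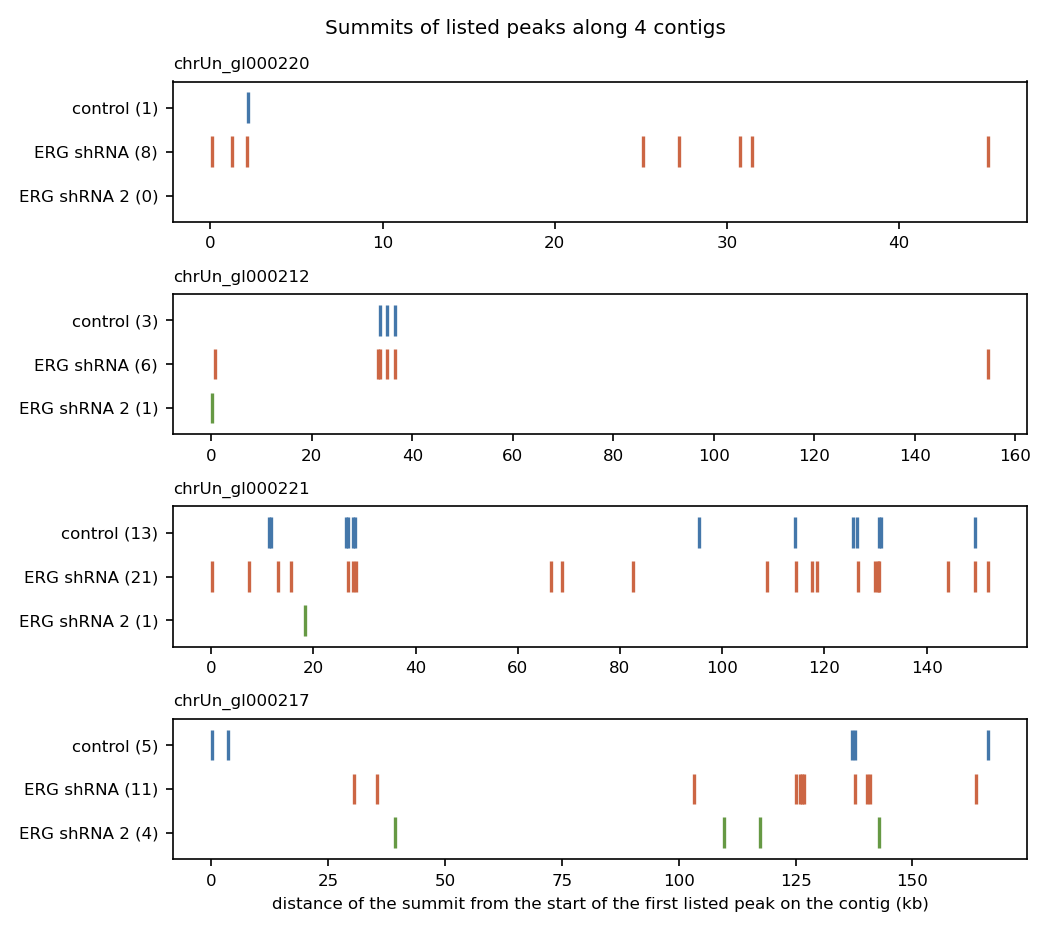
Summits of listed peaks along 4 unplaced contigs, as distance in kb from the start of the first listed peak, with 1 row per library and the number of peaks in brackets. On chrUn_gl000212 all 3 control peaks line up with ERG shRNA peaks, against 13.5% of all control peaks. On chrUn_gl000220 1 of 8 ERG shRNA peaks has a control counterpart, near the 14% of all ERG shRNA peaks.

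In control and ERG shRNA the median heights and folds of contig peaks lay close to those on the main chromosomes, and in ERG shRNA 2 they did not. The median contig peak had a pileup of 7 in the control (quartiles 6 to 9), against 6 (5 to 7) on the main chromosomes. In ERG shRNA it was 5 in both places, with quartiles of 4 to 7 on contigs and 4 to 5 elsewhere. In ERG shRNA 2 it was 9.36 on contigs and 16.5 elsewhere, in tags scaled to the input. The median local background of control and ERG shRNA was higher on contigs. Its median was 1.53 times the genome-wide value in the control against 1.27 on the main chromosomes, and 1.87 against 1.32 in ERG shRNA. Without chrUn_gl000221 the control's contig median was 1.27, equal to that on the main chromosomes. In ERG shRNA it was then 1.82 times the genome-wide value. A background at least 5 times that value, again a level set after seeing the data, was found at 6.94% of control contig peaks (2.29 to 15.5) and 1.07% of the others (0.921 to 1.23). In ERG shRNA it was found at 13.1% (7.81 to 20.1) and 0.454% (0.359 to 0.566). ERG shRNA 2 went the other way, with 4.76% (0.120 to 23.8) on contigs and 54.6% (49.7 to 59.5) elsewhere. Dense windows of the main chromosomes were 46 windows of 1 Mb with at least 30 peaks of control or ERG shRNA. The shares there were 2.83% (2.17 to 3.63) in the control and 1.77% (1.19 to 2.54) in ERG shRNA.

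Fold enrichment did not reach high values on contigs. The median on contigs was 4.26 in the control and 4.14 in ERG shRNA, against 4.37 and 4.18 on the main chromosomes. In ERG shRNA 2 it was 3.72 on contigs and 3.12 on the main chromosomes. The highest folds on contigs were 6.27 and 6.64, whereas the lists, which hold far more peaks, reached 28.5 and 191. A fold of at least 5 was reached by 13.9% of control contig peaks (6.87 to 24.1), against 26.0% on the main chromosomes. In ERG shRNA the shares were 12.3% (7.20 to 19.2) and 17.4%. A contig peak had the higher fold than a main-chromosome peak with a probability of 0.435 in the control and 0.400 in ERG shRNA, but the higher pileup with a probability of 0.628 and 0.607. In ERG shRNA 2 the order was the other way round, with 0.668 by fold and 0.268 by pileup. There the median background was 2.44 times the genome-wide value on contigs and 5.88 times on the main chromosomes.

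**Figure D4:**
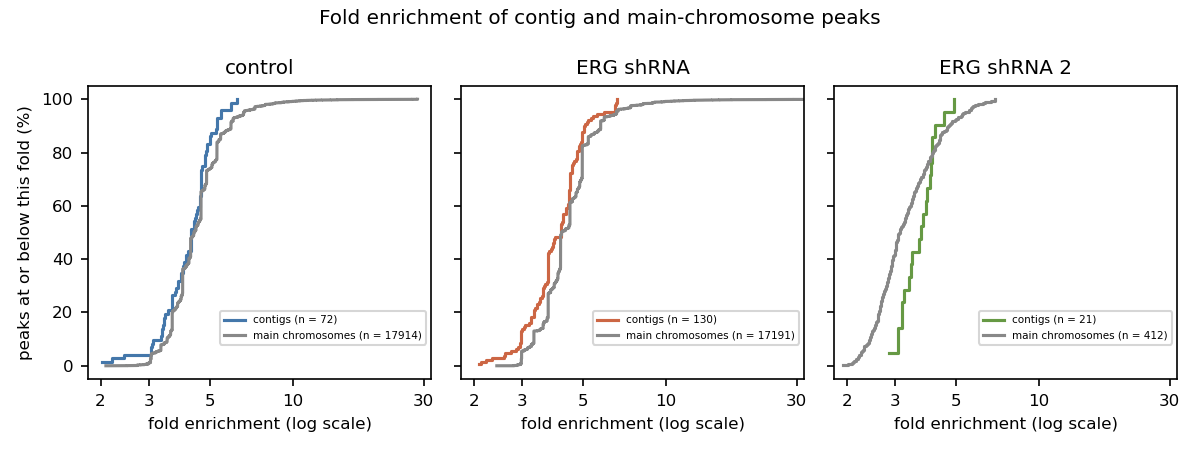
Cumulative share of peaks by fold enrichment (log axis, from 1.8 to 32) on contigs (coloured) and main chromosomes (grey), for each library. The contig curves end at 6.27, 6.64 and 4.91, and ERG shRNA has main-chromosome peaks beyond the axis, up to 191.

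The 5 contig peaks of highest fold in each library were unlike the tall ones. After the chr4_gl000194_random peak, the control's were chrUn_gl000221 at 151127 to 151333 (fold 5.98), chr8_gl000196_random at 1487 to 1774 (5.97), and chrUn_gl000244 at 32517 to 32671 and chrUn_gl000246 at 26832 to 26980 (5.47 each). Of these 5 the chrUn_gl000221 peak alone was overlapped by an ERG shRNA peak, against 13.5% of all control peaks. In ERG shRNA they were chrUn_gl000214 at 139 to 470 (6.64), chr19_gl000208_random at 30536 to 30735 (6.63), chr9_gl000198_random at 66434 to 66557 (6.59), and chr19_gl000208_random at 58368 to 58541 and chrUn_gl000245 at 34104 to 34360 (6.56 each). Of these, the chrUn_gl000214 peak was overlapped by a control peak and the chrUn_gl000245 peak by an ERG shRNA 2 peak. In ERG shRNA 2 the 4 after chrUn_gl000221 were chrUn_gl000231 at 2446 to 2603 (4.52), chrUn_gl000217 at 120217 to 120370 (4.18), and chrUn_gl000225 at 149408 to 149623 and chrUn_gl000228 at 7951 to 8288 (4.08 each). The last was also the widest of that library's contig peaks, at 338 bp. The widest control contig peak was the tall one of chrUn_gl000212, at 493 bp.

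The share of contig peaks passing a q threshold was within counting error of that of each whole list. A q of at most 0.05 was reached by 59 of 72 control contig peaks (81.9%, 71.1 to 90.0), against 79.8% of the whole list, and by 86 of 130 in ERG shRNA (66.2%, 57.3 to 74.2), against 72.6%. None of the 21 in ERG shRNA 2 did, which allows a share of up to 14.3% by the limit of 3 counts and 16.1% by the exact interval, against 8.31% of its list. At −log10 q of at least 5 there were 3 control peaks, 2 on chrUn_gl000212 and 1 on chrUn_gl000220, and 11 ERG shRNA peaks. They were 4.17% of control contig peaks (0.868 to 11.7), against 6.66% on the main chromosomes. In ERG shRNA the shares were 8.46% (4.30 to 14.6) and 5.97%.

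Sharing of contig peaks between libraries was near that of the lists for control and ERG shRNA. A site is called shared where 1 bp or more lies in peaks of both lists. Of the 72 control contig peaks, 16 (22.2%, 13.3 to 33.6) met a peak of ERG shRNA, against 13.5% of all control peaks, a value inside the interval. In the other direction 17 of 130 (13.1%, 7.81 to 20.1) were overlapped, against 14% of all ERG shRNA peaks. Without chrUn_gl000212 and chrUn_gl000220 the counts were 12 of 68 (17.6%) and 12 of 116 (10.3%).

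The 17 overlapping pairs lay on 9 contigs, and their summits were a median of 53 bp apart, with a range of 2 to 270. By control fold, the highest shared site was chrUn_gl000221 at 151127 to 151333, with a control fold of 5.98 and an ERG shRNA fold of 2.98. Next were chrUn_gl000221 at 127978 to 128362 (4.995 and 2.98), chrUn_gl000219 at 39327 to 39474 (4.81 and 4.85), chrUn_gl000217 at 140511 to 140658 (4.66 and 3.87) and chrUn_gl000227 at 40889 to 41074 (4.64 and 4.72). The other 5 of the highest 10 were chrUn_gl000221 at 29398 to 29545 (4.61 and 4.20), chrUn_gl000214 at 84 to 378 (4.46 and 6.64), chrUn_gl000221 at 115912 to 116095 (4.42 and 3.74), chrUn_gl000225 at 149259 to 149422 (4.37 and 3.23) and chrUn_gl000228 at 7926 to 8242 (4.26 and 3.74). Folds of different lists rest on different backgrounds and depths, so they are given side by side only.

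On the main chromosomes shared control peaks were stronger, with a median fold of 5.31 against 4.26 for the others. On contigs the median folds were 4.39 and 4.26, closer together. Without chrUn_gl000212 and chrUn_gl000220 they were 4.53 and 4.26. By pileup shared control peaks were taller in both places, with medians of 9 against 7 on contigs and 8 against 6 on the main chromosomes. In ERG shRNA the median folds on the main chromosomes were 4.97 and 4.14, and on contigs 3.74 for shared and 4.14 for the other peaks, in the opposite order. Only 17 contig peaks were shared there, and median pileups were 5 and 5 on contigs and 6 and 4 on the main chromosomes.

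**Figure D5:**
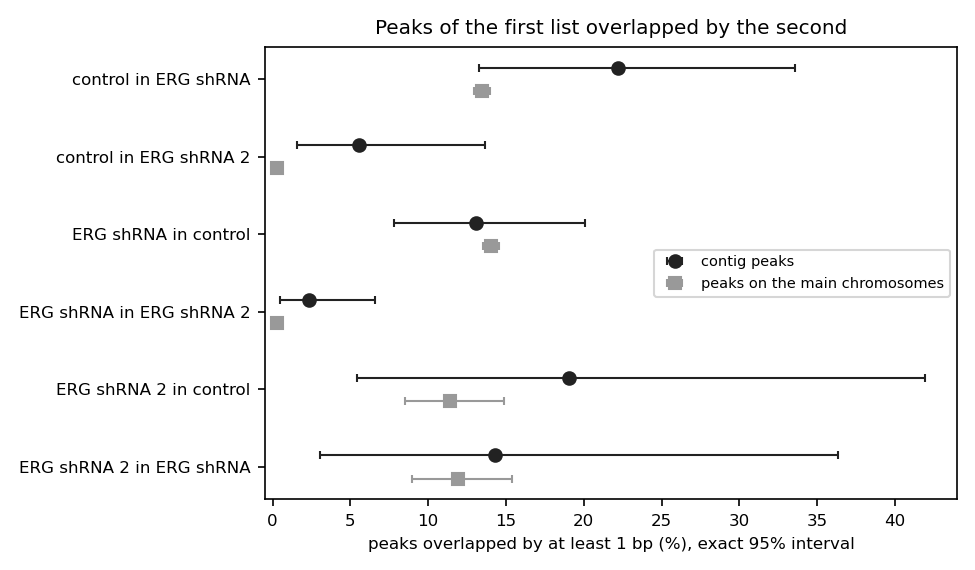
Share of peaks in the first list overlapped by at least 1 bp by the second, in percent with exact 95% intervals, for contig peaks (black circles) and peaks on the main chromosomes (grey squares). The main-chromosome share lies within the interval of the contig share except where ERG shRNA 2 is the second list, at 5.56% and 2.31% on contigs.

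ERG shRNA 2 shared 4 contig sites with the control and 3 with ERG shRNA. These were 4 of 72 control peaks (5.56%, 1.53 to 13.6), against 0.284% of all control peaks, and 3 of 130 ERG shRNA peaks (2.31%, 0.478 to 6.60), against 0.306% of all ERG shRNA peaks. From the side of ERG shRNA 2 they were 4 of 21 (19.0%, 5.45 to 41.9), against 11.8% of its list, and 3 of 21 (14.3%, 3.05 to 36.3), against 12% of its list. Contigs held 4.85% of the ERG shRNA 2 list, and seen from that list the shares lay within counting error of those of the whole list.

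The sites shared with the control were chrUn_gl000219 at 86314 to 86461, chrUn_gl000225 at 149259 to 149422, chrUn_gl000228 at 7926 to 8242 and chrUn_gl000231 at 2454 to 2601, with control folds of 4.03, 4.37, 4.26 and 4.85 and ERG shRNA 2 folds of 4.02, 4.08, 4.08 and 4.52. Those shared with ERG shRNA were chrUn_gl000228 at 7948 to 8062, chrUn_gl000231 at 21626 to 21836 and chrUn_gl000245 at 34104 to 34360, with ERG shRNA folds of 3.74, 3.17 and 6.56 and ERG shRNA 2 folds of 4.08, 3.38 and 3.65.

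The control peaks on chrUn_gl000225 and chrUn_gl000228 had a counterpart in both ERG shRNA lists, and they were the only 2 of the 72. On chrUn_gl000228 all 3 peaks overlapped each other. The control reached a pileup of 6 there, ERG shRNA 4 and ERG shRNA 2 a scaled 7.16, and the ERG shRNA 2 summit lay 234 bp from that of the control. On chrUn_gl000225 the control peak bridged the other libraries' peaks, at 149116 to 149316 and 149408 to 149623, which did not overlap each other, and it met the latter by 15 bp.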

How the data were processed

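ChIP-seq peak lists of 3 VCaP libraries were used, 1 per group. The build was hg19, and MACS2, bedtools, Bowtie2 and Picard 2.14.0 are named without roles, per the submitters' processing notes. The sources used here do not give the treatment of tags aligning to several places. MACS 2.2.7.1, per the file headers, called peaks in each library against an input, at a p cutoff of 0.001 with at most 1 tag per position, and scaled the larger of library and input to the smaller. The deposited pileup is a coverage signal. The deposited fold is a ratio of pileup to background, each with 1 added. The deposited −log10 p and −log10 q columns had damaged names and were read in the MACS order.

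Local background was recovered from pileup and fold, and divided by the lowest value in the list, taken as genome-wide. Recomputing the Poisson p from it gave the deposited −log10 p to within 6.64e-05 for the contig peaks of control and ERG shRNA. Overlap counts were tested on simulated data (0 peaks misassigned) and equalled those of bedtools 2.31.1. Scripts ran in Python 3.11.15 with scipy 1.17.1, pandas 2.3.3, numpy 2.4.6 and, for figures, matplotlib 3.10.9. The second sheet of each workbook repeats the coordinates of the first. Members and alternatives were chosen with earlier results of these data known. Described were contigs with 5 or more peaks in a list, the 5 peaks of highest fold and the widest of each list, those found in all 3 lists, and the 10 shared sites of highest control fold. The other sites named were picked with their values known. Positions are 1-based in hg19, as deposited. Sequences and gene annotation were not used here.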

Additional observations from a re-analysis of the deposited data

How the results depend on the processing

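Of 116 alternative values, 79 stayed within the counting interval of the reported value or within 1.5 times the count, and 37 moved. Merging peaks within 1000 bp, or leaving out chrUn_gl000221, _hap contigs (none held a peak) or, chosen after seeing the data, chrUn_gl000212 and chrUn_gl000220, moved none. Contig peaks in control, ERG shRNA and ERG shRNA 2 numbered 3, 11 and 0 from a −log10 q of 5 upwards, and 10, 16 and 0 from a fold of 5 upwards. Their shares of the lists were then 0.251% and 1.06%, and 0.214%, 0.532% and 0%. At a q of at most 0.05, 86 and 0 remained in the ERG shRNA lists, the latter a share of 0%. At −log10 q of at least 2, 55.6% of control and 33.8% of ERG shRNA contig peaks passed. Control contig peaks in ERG shRNA were 34.7% within 1000 bp, 66.7% with both lists cut at a −log10 q of 5, 100% with the first alone at it (3 peaks), and 0% at a fold of at least 5. ERG shRNA contig peaks in the control were 7.69% at a reciprocal overlap of 50%, 27.3% and 36.4% at that q, and 0% at that fold. Against ERG shRNA 2, both were 0% with both lists at that q or fold and in lists of equal length. ERG shRNA 2 had 0 contig peaks at that q or fold, so those values were fixed in advance. The lists of equal length held only 1 control and 4 ERG shRNA contig peaks. With the first list alone at that q they were 0% for the control and 9.09% for ERG shRNA. ERG shRNA 2 contig peaks in either other list were 0% at equal length, where few contig peaks remained to be met. By pileup in place of fold, the probability that a contig peak was the higher was 0.628, 0.607 and 0.268 in the 3 lists, on the other side of 0.5 from that by fold. By −log10 p it was 0.505, 0.452 and 0.477. The stricter settings leave fewer peaks by construction; beyond that, the cause was not tested. No paired analysis was possible because there was a single library per group and no test. Depth differed between libraries and the lists cannot be thinned to a common depth.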

Other observations

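The median local background was 1.94 times the genome-wide value on unplaced and 1.13 times on unlocalized contigs in the control, and 1.95 and 1.63 times in ERG shRNA. At least 5 times that value was found in ERG shRNA at 17 of 96 peaks on unplaced contigs, 15 of them on chrUn_gl000212, chrUn_gl000220 and chrUn_gl000224, and at 0 of 34 on unlocalized ones, whose exact interval reaches 10.3%. In the control it was found at 4 of 55 (7.27%) and 1 of 17 (5.88%). Neighbouring peaks of a library on the same contig had median gaps of 5596, 9541 and 14012 bp in the order control, ERG shRNA, ERG shRNA 2, and 11 of 45, 17 of 99 and 1 of 9 gaps were under 1 kb. Contig peaks covered 14010, 21354 and 4060 bp, or 0.404%, 0.875% and 3.41% of the bases in peaks of their lists.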
